A study of Rattus norvegicus with 18 samples.

Results

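In the rat gastrocnemius, 29 genes had a lower level in every one of 12 old animals than in any of 6 young animals, whether the old animals had eaten freely or had been kept on caloric restriction (CR). They were selected on these same values, out of 12848 genes on chromosomes 1 to 20 with a mean of at least 1 CPM (counts scaled to the total of their library) over all 18 libraries. For a gene to be a member, its highest CPM among the old libraries had to lie below its lowest CPM among the young ones. Of the 12848 genes, 32 met this condition, which is 0.249%, and 3 of them were left out because all 6 CR libraries also lay below all 6 libraries of the old freely fed rats.

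All animals were male Brown Norway rats (BN/SsNOlaHSD), housed singly once they were 2 months old. A group of 6 ate ad libitum (AL) and was killed at 6 months (young AL). Of the old rats, all killed at 28 months, 6 had been fed AL (old AL) and 6 had received 55% of the AL intake since 2 months of age (old CR). Young CR rats were not analysed here, so the CR diet was seen at the old age only.

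The gastrocnemius is a calf muscle of mixed fibre type that works in walking and jumping. With age, skeletal muscle loses mass and force, its innervation and fibre composition shift, and its blood vessels, connective tissue and resident immune cells change with the fibres. CR begun early in adult life is known to slow many of these changes, and genes that are low in old muscle under both diets are therefore of interest. In RNA from whole muscle, fewer cells of a type and less RNA per cell cannot be told apart.

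The counts are given by Ensembl identifier of Rnor_6.0 with no gene symbol, and the gene list at hand pairs none of these identifiers with a name. The members are for that reason numbered 1 to 29 by their gap ratio, the lowest young CPM divided by the highest old CPM, and are given by their position. What each gene does is not stated, and the tissue label could not be checked against muscle markers. Identifiers are given for the member with the largest gap, ENSRNOG00000061483 (member 1), and for the most abundant one, ENSRNOG00000007290 (member 13).

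Total counts per library ran from 17335401 to 27432767. In principal components of log2 CPM, old AL rat 8 lay at 108.86 on the first component and old CR library 8828 at 75.53, far from the other 16 libraries. These 2 libraries also held the lowest value of 16 of the 29 members, library 8828 of 11 and rat 8 of 5. With both left out, 27 of the 29 still met the rule, and members 11 and 20 dropped out because every remaining CR library then lay below every remaining old AL library. Library numbers form 1 block per group (8883 to 8888 in young AL, 8773 to 8780 in old AL, 8822 to 8828 in old CR), so handling by block and group cannot be told apart. By the labels, each animal gave 1 library. In the column names, 2 CR libraries carry the same sample number. A total of 3 CR libraries are called by library number because their column names do not match a single rat.

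**Figure D1:**
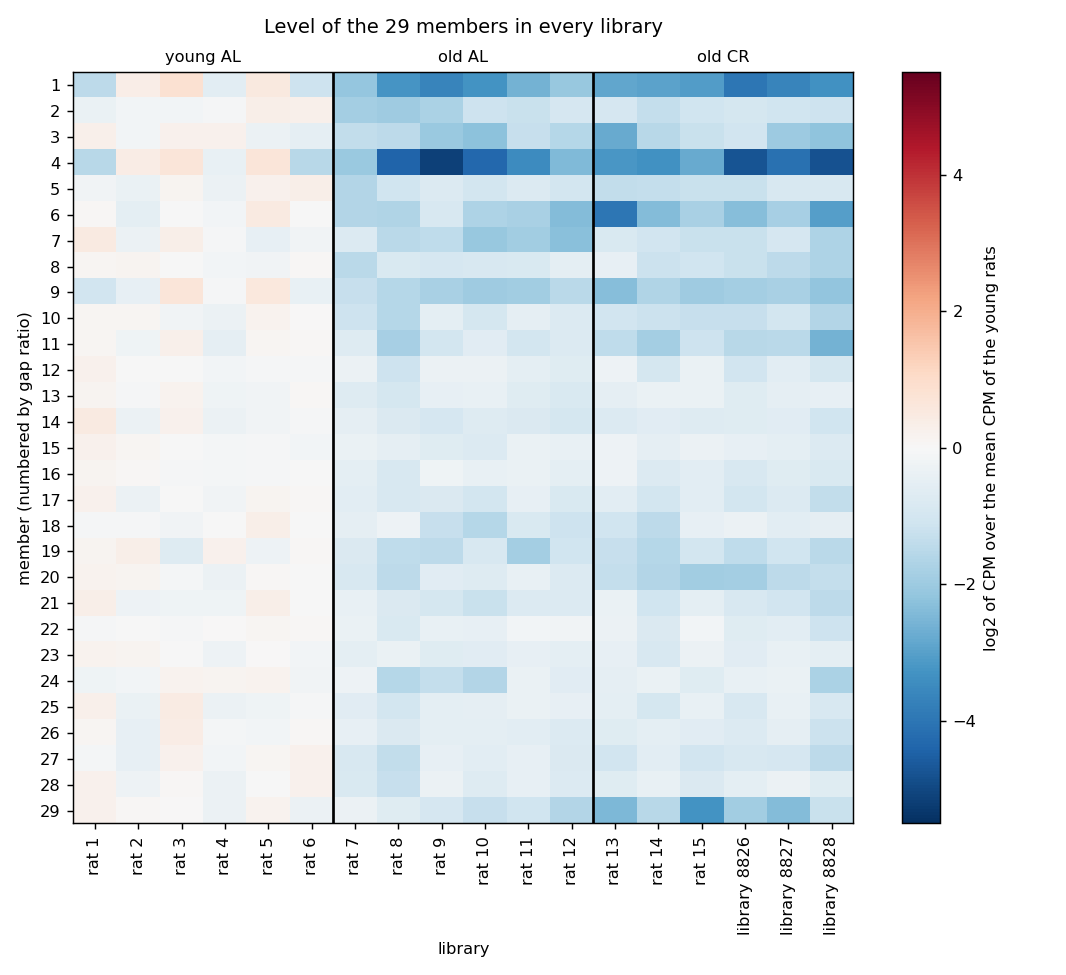
Level of each of the 29 members (rows) in each of the 18 libraries (columns), as log2 of its CPM over the mean CPM of the 6 young rats; blue is lower and red is higher. Both old blocks are blue throughout, and members 1 and 4 are the darkest rows, with old AL means at 15.3% and 10.7% of the young mean.

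The summed level of the 29 members was 6712 ± 645 CPM in young AL rats (SD, n = 6), 3821 ± 492 CPM in old AL rats and 3634 ± 259 CPM in old CR rats. The lowest young sum was 5704 CPM and the highest old sum 4239 CPM. Since each member was chosen for being low in the old libraries, this separation is a description of the choice. The old AL mean of a member was between 10.7% and 76.6% of its young mean (median 55.2%), and the old CR mean between 8.06% and 72.3% (median 51.2%). For 9 members both old means were at most 50% of the young mean, and for 14 members the CR mean was.

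Most gaps were narrow. The gap ratio had a median of 1.10 and a range of 1.003 to 1.57, and 7 members were above 1.2. The lowest young value belonged to rat 4 in 9 members, to rat 2 in 7 and to rat 1 in 5, whereas the highest old value belonged to old AL rat 7 in 8 members and to old AL rat 11 in 6. A small number of animals thus set most of the boundaries. At the edge of the rule, member 29 had a lowest young value of 5.77 CPM against a highest old value of 5.75 CPM, and the nearest gene outside, at chr8:130009573-130106382, had 99.97 CPM against 100.3 CPM.

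The change was largest in a pair of genes 76762 bases apart on chromosome 20. Member 4 (chr20:4877324-4879779, minus strand, 1 exon of 2456 bases) ranged from 40.8 CPM to 191 CPM in young AL rats with a median of 124 CPM. In old AL rats it ranged from 3.33 CPM to 28.5 CPM (median 8.41 CPM), and in old CR rats from 4.26 CPM to 17.3 CPM (median 9.31 CPM). The young rats spread widely, with rats 1 and 6 at 40.8 CPM and 41.6 CPM, rat 4 at 88.5 CPM and rats 2, 3 and 5 between 159.9 CPM and 191 CPM, and even the low ones were above every old rat. The fitted log2 difference was -3.38 (SE 0.57) for old AL and -3.69 (SE 0.58) for old CR against young AL.

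Member 1 (chr20:4956541-4958492, minus strand) had a similar order of animals at a lower level. It ranged from 4.12 CPM to 20.1 CPM in young AL rats (median 11.1 CPM), from 0.923 CPM to 2.63 CPM in old AL rats (median 1.52 CPM) and from 0.709 CPM to 1.55 CPM in old CR rats (median 1.23 CPM). The fitted log2 difference was -2.87 (SE 0.40) for old AL and -3.31 (SE 0.41) for old CR against young AL. Again rats 1 and 6 were the lowest young animals, and no old rat reached them. Per kilobase of exon, the young mean of member 1 was 6.07 CPM and that of member 4 was 48.4 CPM. The level of member 4 stood above that of 90.3% of the expressed genes in young AL rats and above 37.7% of them in old AL rats on that scale, and that of member 1 above 46.5% and 8.30%.

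The levels of members 1 and 4 varied together between animals within a group, a measure the choice of members did not use. On log2 CPM, Pearson's r between them was 0.985 over the 6 young AL rats (exact permutation p = 0.0028) and 0.990 over the 6 old AL rats (exact permutation p = 0.0056), both 0.025 after Benjamini-Hochberg adjustment over the 9 relations tested, and 0.780 over the 6 old CR rats (exact permutation p = 0.078, adjusted 0.175). Spearman's rho was 0.943, 0.886 and 0.657 (two-sided exact permutation p = 0.017, 0.033 and 0.175), of which none passed adjustment (0.15, 0.15 and 0.263). Without the 2 animals farthest from the median of member 1, r was 0.976, 0.985 and 0.791. The relation in young and old AL rats therefore held by r with and without its extreme animals, and by ranks before adjustment only. The ratio of member 4 to member 1 was between 8.18 and 11.8 in young AL rats (median 10.4), between 3.61 and 11.0 in old AL rats (median 5.51) and between 3.80 and 12.8 in old CR rats (median 7.76).

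The gene model of member 1 is unusual. It consists of 26 exon pieces parted by gaps of 1 to 5 bases, so that 95.3% of its 1952 bases are exonic, and only 3 of the 12848 expressed genes have 10 or more exon pieces and no gap above 30 bases. How similar the sequences of members 1 and 4 are, and whether reads could be shared between them or with another copy, was not tested, because no genome sequence was at hand. Under the counting call given in the table's header, reads that fit several places or several genes were not counted.

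**Figure D2:**
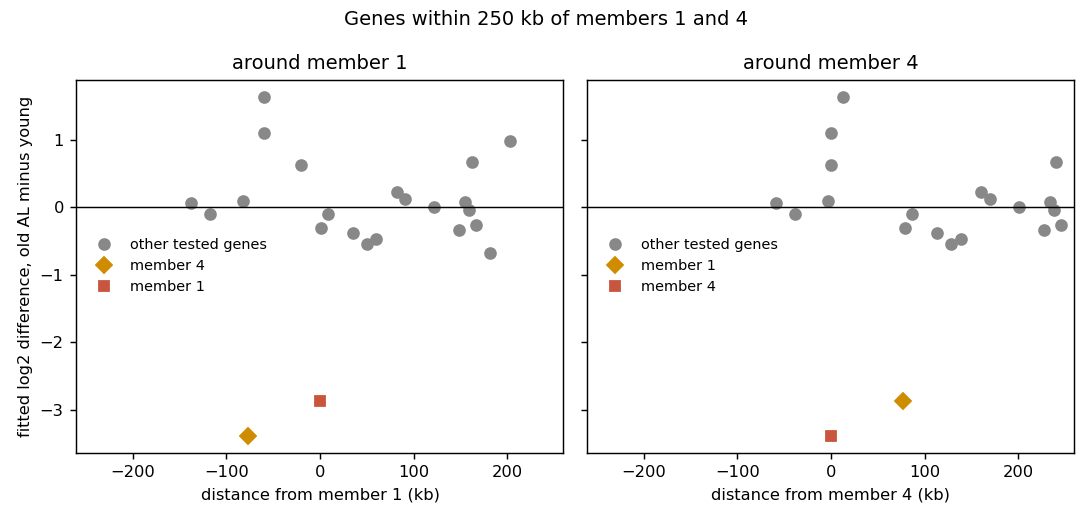
Fitted log2 difference between old AL and young AL rats for the tested genes within 250 kb of member 1 (left) and of member 4 (right), against distance in kb. Members 1 and 4 lie at -2.87 and -3.38, and the other 21 genes between -0.68 and 1.63.

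The genes around this pair were looked at in the same fit. Of 21 tested genes within 250 kb of member 1 or 4 that are not members, 0 were called lower in old AL or in old CR rats by edgeR's quasi-likelihood test (adjusted p of at most 0.05 and a change of at least 1.5-fold). Over all genes 1.52% and 1.22% were called lower, so a count of 0 among 21 is close to the general share and is no result about this region. At an unadjusted p under 0.05, 5 of the 21 were lower in old AL and 1 in old CR rats, beside 10.6% and 10.1% of all genes, and DESeq2 called 1 lower in each, beside 2.78% and 2.48%. Their log2 differences between old AL and young AL ran from -0.68 to 1.63 with a median of -0.00068. Of the 4 genes that overlap member 4, the most abundant had means of 10.8 CPM in young AL, 27.3 CPM in old AL and 18.2 CPM in old CR rats and was called higher in old AL rats, with a log2 difference of 1.10. A gene 12.9 kb from member 4 was called higher in both old groups, at 1.63 in old AL and 1.46 in old CR rats. Over all 14646 genes tested, 275 were called higher in old AL and 112 in old CR rats, and nothing is read from these neighbours about the region. The single gene that overlaps member 1 had a mean of 0.11 CPM.

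A further 7 members had both old means at or below 50% of the young mean, and they span a wide range of levels. Member 9 (chr12:6322668-6341902, minus strand, 18 exons) had 91.7 CPM to 300 CPM in young AL rats (median 161 CPM), 48.3 CPM to 79.2 CPM in old AL rats (median 58.9 CPM) and 36.9 CPM to 59.6 CPM in old CR rats (median 50.7 CPM). Its log2 difference was -1.81 (SE 0.26) in old AL and -2.0 (SE 0.26) in old CR rats. Young rat 1 was the lowest young animal for this gene too, as it was for members 1, 2, 4 and 24, whereas it was the highest young animal for 11 other members.

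Member 2 (chr17:12261102-12276315, plus strand, 2 exons) was the member with the second largest gap. It ranged from 81.7 CPM to 130 CPM in young AL rats (median 96.6 CPM), from 27.1 CPM to 54.7 CPM in old AL rats (median 38.2 CPM) and from 42.3 CPM to 54.1 CPM in old CR rats (median 48.6 CPM). On the CPM of the rule, the CR rats lay within the range of the old AL rats and were closer together, with an SD of 4.41 CPM against 11.4 CPM. With the TMM factors that the fit applied to library totals, CR library 8826 was the highest old library, at 52.6 CPM. The log2 difference from young AL was -1.53 (SE 0.21) in old AL and -1.12 (SE 0.20) in old CR rats.

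Member 7 (chr5:159428515-159471144, plus strand, 16 exons) ranged from 246 CPM to 481 CPM in young AL rats (median 309 CPM), from 69.8 CPM to 201 CPM in old AL rats (median 107 CPM) and from 104 CPM to 191 CPM in old CR rats (median 155 CPM). On the CPM of the rule, the CR animals lay within the range of the old AL animals, all but library 8828 above their median. With the TMM factors of the fit, CR library 8827 was the highest old library, at 187 CPM. The fitted log2 difference between the old groups, 0.56 (SE 0.25) in CR against AL, was the highest of the 29. The differences from young AL were -1.75 (SE 0.25) in old AL and -1.20 (SE 0.25) in old CR rats. Member 5 (chr6:41799749-41870046, minus strand, 21 exons) had means of 300 ± 60.3 CPM, 149.5 ± 29.9 CPM and 136 ± 20.3 CPM in young AL, old AL and old CR rats (SD, n = 6 each), with old AL rat 7 the lowest of all at 97.0 CPM.

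The other 3 of these 7 were rare transcripts. Member 3 (chr12:28212333-28251816) had 2.22 CPM to 3.79 CPM in young AL rats, 0.665 CPM to 1.29 CPM in old AL rats and 0.464 CPM to 1.52 CPM in old CR rats, and its mean over all libraries, 1.71 CPM, was the closest to the floor of the rule. Member 6 (chr8:119121669-119133546) had 3.36 CPM to 6.79 CPM, 0.925 CPM to 2.62 CPM and 0.309 CPM to 1.40 CPM in the same order. Member 19 (chr5:159207273-159214241) had 3.0 CPM to 6.18 CPM, 1.38 CPM to 2.85 CPM and 1.69 CPM to 2.44 CPM. In all 3 the gap stood between values of a few CPM, and the log2 differences in old AL rats were -1.78, -1.74 and -1.33 and in old CR rats -1.72, -2.41 and -1.31.

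**Figure D3:**
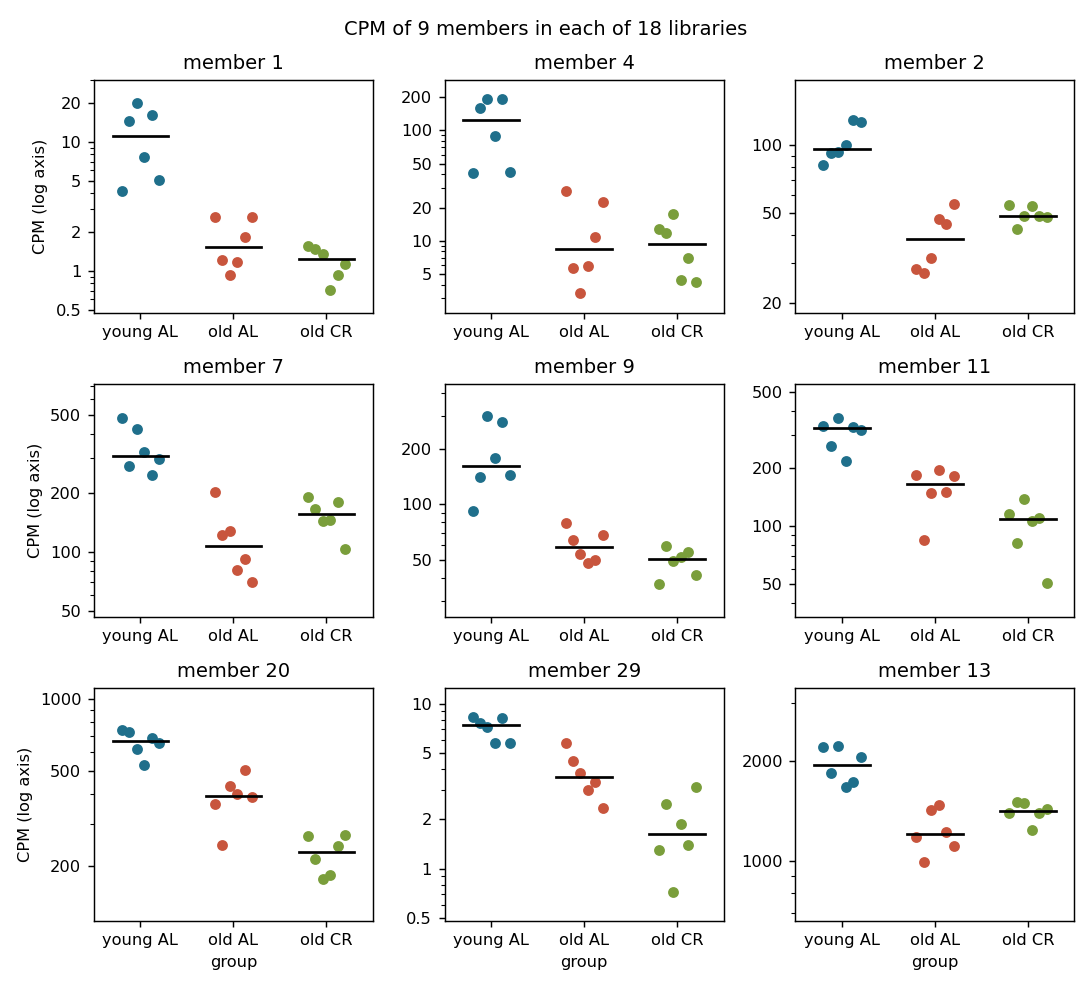
CPM (log axis) of 9 members in each library, by group; each point is 1 library and the bar is the group's median. In every panel the old points lie below the lowest young point, and in member 29 by 5.77 CPM against 5.75 CPM only.

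The most abundant members differed in the size of their change. Member 13 (chr13:90651686-90676629, minus strand, 23 exons) ranged from 1670 CPM to 2216 CPM in young AL rats (median 1948 CPM), from 993 CPM to 1471 CPM in old AL rats (median 1202 CPM) and from 1243 CPM to 1507 CPM in old CR rats (median 1415 CPM). It was the most abundant member in every library, and on the CPM of the rule 2 CR rats were above the highest old AL rat. With the TMM factors of the fit, old AL rat 10 was the highest old library, at 1498 CPM. Its log2 difference was -0.80 (SE 0.18) in old AL and -0.53 (SE 0.18) in old CR rats. Per kilobase of exon its young mean, 381 CPM, stood above that of 98.7% of the expressed genes.

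Member 10 (chr6:127212273-127248372, minus strand, 10 exons) ranged from 752 CPM to 1065 CPM in young AL rats (median 983 CPM), from 317 CPM to 669 CPM in old AL rats (median 519 CPM) and from 307 CPM to 467 CPM in old CR rats (median 405 CPM). The lowest value of each old group belonged to rat 8 and library 8828. A gene that is no member, 9.78 kb away, had means of 6.22 CPM, 1.89 CPM and 1.68 CPM in the 3 groups and was called lower in both old groups, with log2 differences of -1.86 in old AL and -1.95 in old CR rats.

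The old groups were also set against each other. By edgeR, 0 of the 29 were called lower and 0 higher in old CR than in old AL rats, where 0.546% of the 14646 genes tested were called lower and 0.833% higher, and 4 members had an unadjusted p under 0.05, as 15.3% of all genes had. DESeq2's Wald test called 2, members 20 and 29, both lower in CR rats, where it called 1.29% of the 15300 genes with an adjusted p lower. Genes with a complete separation in that direction had been left out by the rule, which used this contrast in part, so these counts are a description. The median log2 difference of the 29 between the old groups was -0.0023 (range -0.94 to 0.56), with 15 of 29 below 0, beside 53.15% of all genes. The sign of that median rests on scaling: it was 0.0059 with upper-quartile factors, and with library totals alone it was -0.15 with 23 of 29 below 0, beside -0.19 and 76.79% for all genes.

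Member 29 (chr20:19636159-19637958, minus strand, 2 exons) had the lowest value of CR against AL. It ranged from 5.77 CPM to 8.33 CPM in young AL rats (median 7.40 CPM), from 2.34 CPM to 5.75 CPM in old AL rats (median 3.57 CPM) and from 0.726 CPM to 3.10 CPM in old CR rats (median 1.63 CPM). The order was young, old AL, old CR, with 4 CR libraries below the lowest old AL rat and 2 within the AL range. Its log2 differences were -1.10 (SE 0.26) for old AL and -2.04 (SE 0.27) for old CR against young AL, and -0.94 (SE 0.27) between the old groups.

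Member 20 (chr12:36638457-36642734, plus strand, 2 exons) showed the same order at a high level. It ranged from 528 CPM to 746 CPM in young AL rats (median 671 CPM), from 245 CPM to 504 CPM in old AL rats (median 394 CPM) and from 177 CPM to 270 CPM in old CR rats (median 229 CPM). Old AL rat 8, at 245 CPM, was the only old AL animal inside the CR range, and it is the library that stood apart. The log2 difference between the old groups was -0.72 (SE 0.20), and -0.86 without rat 8. Member 11 (chr11:71397383-71419223, minus strand, 19 exons) had medians of 323 CPM, 166 CPM and 108 CPM in young AL, old AL and old CR rats, with rat 8 at 85.0 CPM and library 8828 at 50.6 CPM the low ends of their groups. Its difference between the old groups was -0.57 (SE 0.27).

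**Figure D4:**
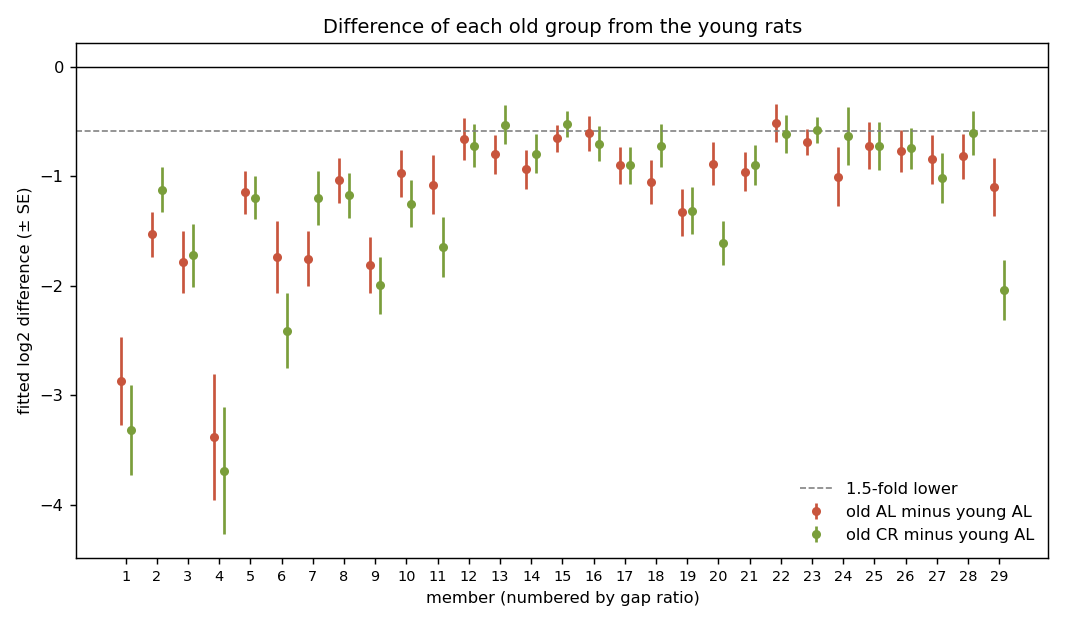
Fitted log2 difference from young AL rats for each member, with its standard error, in old AL and in old CR rats; the dashed line marks a 1.5-fold lower level. Old AL values run from -3.38 to -0.51 and old CR values from -3.69 to -0.52.

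In the fit across all genes, all 29 members passed the filter on low counts, which a gene can pass through the young libraries alone. Of the 29, 26 were called lower in old AL than in young AL rats by edgeR's quasi-likelihood test, where 1.52% of the 14646 genes tested were, and 20 in old CR against young AL rats, where 1.22% were. The rule used both contrasts and nothing is read from these counts. The median log2 difference of the members was -0.97 in old AL and -1.02 in old CR rats, and that of all genes 0.0071 and 0.0046. Members 12, 22 and 25 were called in neither comparison although, on the CPM of the rule, none of their old libraries reached a young one. With the TMM factors that the fit applied to library totals, 2 old libraries reached the lowest young rat in member 25. Members 13, 15, 18, 23, 24 and 28 were called for old AL rats only, which does not show that the old groups differ in them, and none of the 6 was called between the old groups.

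Members 12, 16 and 22 had small differences and a narrow range among the young rats. Member 12 (chr10:103832838-103848035) had means of 34.0 ± 3.14 CPM, 23.5 ± 4.50 CPM and 21.4 ± 4.93 CPM in young AL, old AL and old CR rats. Member 16 (chr9:82373946-82382272) had 85.7 ± 6.22 CPM, 61.5 ± 9.04 CPM and 54.5 ± 8.62 CPM, and member 22 (chr14:82375181-82416004) 42.5 ± 2.01 CPM, 32.6 ± 5.09 CPM and 28.6 ± 6.87 CPM. Old AL rat 8, which stood apart, was the lowest old AL rat in all 3. Members 12 and 16, on different chromosomes, shared their differences between animals within groups, with a Pearson's r of 0.885 over 18 libraries after group means were subtracted.

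Members 15, 23, 14 and 17 had nearly equal means under both diets. Member 15 (chr14:82227708-82267350) had 71.6 ± 7.84 CPM, 50.7 ± 5.58 CPM and 51.5 ± 5.84 CPM in young AL, old AL and old CR rats. Member 23 (chr11:69484293-70025633), the longest member at 541341 bases and 60 exons, had 83.7 ± 9.85 CPM, 58.1 ± 4.45 CPM and 58.1 ± 7.48 CPM. Member 14 (chr10:15349888-15381691) had 42.0 ± 10.2 CPM, 24.7 ± 3.03 CPM and 25.2 ± 2.82 CPM. For these genes the log2 difference between the old groups was 0.13 (SE 0.12), 0.11 (SE 0.12) and 0.14 (SE 0.18), close to or below 1 standard error. Member 17 (chr1:274391932-274589816) had 149 ± 21.5 CPM, 88.9 ± 13.2 CPM and 82.6 ± 16.3 CPM, with a difference between the old groups of 0.00098 (SE 0.17).

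Of the 8 remaining members, 2 were rare and the others well expressed. Member 27 (chr8:68569530-68678349) had 304 ± 52.6 CPM, 185 ± 40.6 CPM and 156 ± 30.3 CPM in young AL, old AL and old CR rats, member 25 (chr3:57882370-57957346) 379 ± 95.1 CPM, 255 ± 35.9 CPM and 241 ± 41.9 CPM, and member 26 (chr3:150910398-150918525) 239.6 ± 47.7 CPM, 157 ± 14.8 CPM and 149 ± 23.9 CPM. Among the young rats, rat 3 was the highest or next to it in all 3. Member 24 (chr1:199941161-199965191) had 154 ± 21.7 CPM, 84.9 ± 34.1 CPM and 101 ± 28.5 CPM. Its old AL rats spread widely, with rats 8, 9 and 10 between 51.1 CPM and 62.9 CPM and rats 7, 11 and 12 between 98.5 CPM and 126 CPM.

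Member 28 (chr9:98490608-98500867) had 97.6 ± 15.5 CPM, 60.6 ± 13.3 CPM and 66.5 ± 8.34 CPM, and member 21 (chr1:226912612-226924244) 77.2 ± 15.03 CPM, 44.5 ± 8.55 CPM and 42.9 ± 12.0 CPM. Member 8 (chr9:43117914-43127887) had 9.73 ± 0.967 CPM, 5.22 ± 1.03 CPM and 4.47 ± 1.45 CPM, and member 18 (chr1:81885521-81946714) 4.23 ± 0.535 CPM, 2.33 ± 0.783 CPM and 2.63 ± 0.710 CPM. Of the 29, 7 members had a young mean under 12 CPM and 14 a young mean over 100 CPM.

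The 29 members lie on 13 chromosomes, 12 of them on the plus strand. Their median length was 21841 bases, against 21338.5 bases over all expressed genes, and their median number of exons 11 against 9. Their mean level was higher, with a median of 66.6 CPM against 17.6 CPM. Their median coefficient of variation was 17.3% in young AL, 21.9% in old AL and 19.4% in old CR rats, against 19.03%, 27.3% and 17.6% over the expressed genes. The rule keeps genes whose ranges do not overlap, which bears on their spread, so nothing is read from these values.

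Besides members 1 and 4, there were 2 pairs of members within 250 kb. Members 15 and 22 on chromosome 14 are 107831 bases apart, and within groups their r was -0.621 in young AL, 0.352 in old AL and 0.942 in old CR rats (exact permutation p = 0.197, 0.528 and 0.014, adjusted over the 9 relations 0.355, 0.714 and 0.042). In the same order, rho was -0.657, 0.657 and 0.771 (exact permutation p = 0.175, 0.175 and 0.103, each adjusted to 0.263), and r without the 2 farthest animals -0.531, 0.835 and 0.885. By r the relation passed adjustment in the CR rats and by ranks in no group, and whether the groups differ in it was not tested. Members 7 and 19 on chromosome 5, 214274 bases apart, had r between -0.220 and 0.329 in the 3 groups, with no exact permutation p under 0.556. Without the 2 farthest animals, their r was 0.688 in young AL, -0.281 in old AL and -0.0035 in old CR rats.

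Over all 222 tested genes within 250 kb of a member that are not members themselves, 7 were called lower in old AL rats (3.15%) and 3 in old CR rats (1.35%), beside the 1.52% and 1.22% of all genes. Of the 29, 6 overlap another annotated gene (members 1, 4, 19, 21, 23 and 26), each with at least 1 on the opposite strand. Exon bases are shared in 2 of them, 307 bases in member 19 with a gene at 0.62 CPM and 97 bases in member 21 with a gene at 2.19 CPM, and reads that fit both genes there were not counted. In the other 4 no exon base is shared. The reads were counted without regard to strand. Unspliced reads of an opposite-strand gene that cross a member's exon would therefore be counted for the member. The same holds for overlapping genes on a member's own strand, 3 at member 4 and 1 at member 23. The part of such reads was not tested.

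Between animals of a group, the members did not move as 1 set. Over their 406 pairs, the median r on log2 CPM after subtracting group means was 0.13, against 0.17 over all pairs of 12646 expressed genes. Of the pairs, 12 were above 0.7 and 2 below -0.7, led by members 1 and 4 (0.917), 12 and 16 (0.885) and 17 and 21 (0.835). All pairs share the same 18 libraries. Between members 1 and 9, r was 0.821 over the 6 young AL, 0.661 over the 6 old AL and -0.316 over the 6 old CR rats, given here without a test of each or of the difference.

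Over all 18 libraries, where the difference between ages itself raises r, the genes most like member 1 on log2(CPM + 1) were members 4 (r = 0.970) and 9 (0.941), then a gene that is no member at chr5:57028467-57039378 (0.916). Those most like member 13 were member 28 (0.877) and 2 genes that are not members, at chr10:39655455-39719312 (0.854) and chr20:48335540-48340846 (0.834).

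To see how the rule behaved in a library it had not used, each library was left out in turn, genes were chosen on the other 17, and the side on which the left-out library fell was read. A left-out young rat lay above all old libraries for 59.2% to 93.5% of the genes chosen without it, where 3.07% to 7.48% of all expressed genes did so. A left-out old AL rat lay below all young rats for 69.0% to 100% of the genes, where 8.27% to 21.5% of all genes did so, and a left-out CR library for 90.6% to 100%, where 9.64% to 20.8% did so. The lowest shares belonged to young rats 2 (29 of 49 genes), 1 (29 of 46) and 4 (29 of 40) and to old AL rat 7 (29 of 42). The numerator is nearly always the 29 members themselves, so the shares differ through the number of genes that each animal removes. The share over all expressed genes is no measure of chance here, because those genes were not first separated on the other 17 libraries. A gene already separated on 17 libraries falls on the same side in the last one more often, whatever the groups. Nothing is therefore read from the distance between the 2 kinds of share.

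**Figure D5:**
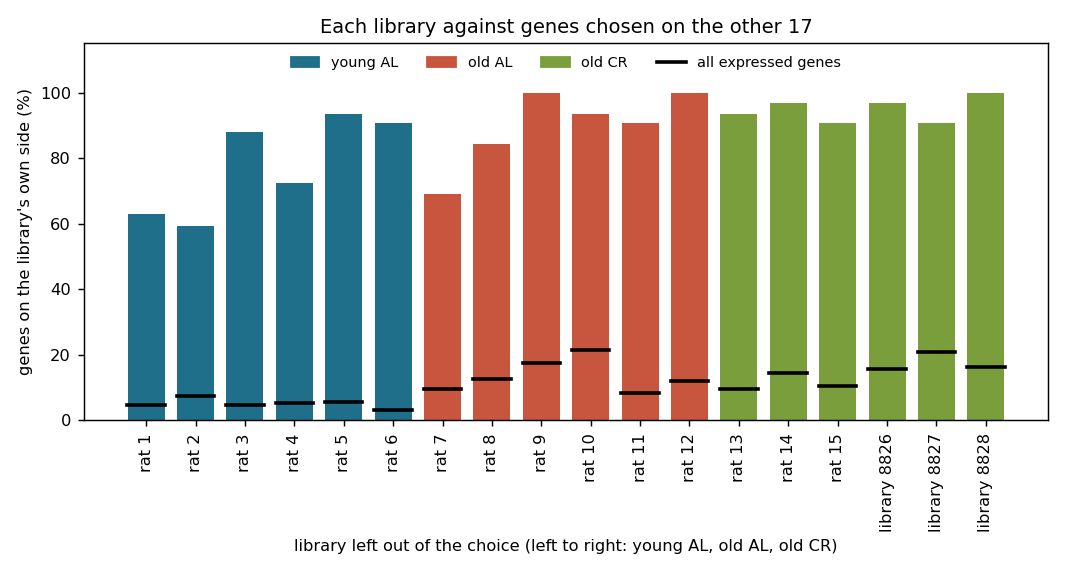
For each library left out of the choice, the percentage of genes chosen on the other 17 libraries for which it fell on the side of its own age group (bars), beside the percentage over all expressed genes (black lines). The lines are over genes that were not chosen on the other 17 libraries, so the distance between bar and line is not read. The lowest bar is young rat 2 at 59.2% and the lowest old one rat 7 at 69.0%.

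How CPM is scaled decides some of the members. The rule divides by the counts outside the mitochondrial genome, whose share of a library was between 2.49% and 12.4%. With mitochondrial reads kept in the total, 26 of the 29 met it, and with TMM-scaled totals or DESeq2 size factors the same 22 did, with members 11, 16, 23, 25, 26, 27 and 28 lost. In each of these 7, between 1 and 3 old libraries then reached the lowest young rat. A total of 21 members met the rule under all 4 scalings, among them members 1 to 10. Under these scalings 41 and 38 genes met the rule, so the list also gained genes.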

How the data were processed

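Gastrocnemius RNA of 18 male Brown Norway rats was sequenced from strand-specific libraries. Per the file headers and the submitters' processing notes, the authors trimmed reads with Cutadapt 1.2.1, aligned them to Rnor_6.0 with STAR 2.3.0e and counted them on genes of Ensembl release 96 with featureCounts 1.6.4, without its strand option. The deposited values are raw counts per gene and library, with gene lengths and exon positions. The columns were assigned to groups from the labels. For 3 CR columns only the group is given by them.

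Members were chosen by the CPM rule given above. The members, the lists and the tests were chosen with earlier results of these data known. In edgeR 4.0.16 (R 4.3.3), filterByExpr kept 14646 genes, TMM factors were applied, and 1 quasi-likelihood fit took in all 18 libraries. A call needed a Benjamini-Hochberg adjusted p of 0.05 or less and a 1.5-fold change. DESeq2 1.42.0, other scalings, no filter, fits of 12 libraries, a stricter threshold of 0.01 and fits without each library were alternatives. Standard errors are the log2 difference divided by the root of its F statistic. Correlations were tested by two-sided exact permutation (scipy 1.17.1). Of 153 pairs of libraries, 0 held identical counts. The p-values of the fits weigh a difference between groups against the spread between animals. Those of the correlations give the share of shuffled pairings within a group with an r, or rho, at least as large in size. The scripts were tested on simulated data. No identifier could be paired with a symbol, so those named were, by the rule for that case, the members with the largest gap and the highest mean CPM, and gene lists, markers and promoter sequences were not used here.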

Additional observations from a re-analysis of the deposited data

Results flagged for a closer look

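Within the groups of 6, the values of each member and 3 summaries of the libraries (total count, mitochondrial share and summed level of the members) were searched for a library whose gap to the next one, as a share of the group's range, passed Dixon's 95% critical value. Chance alone marks about 1 in 20 groups, 4.8 of the 96 examined, and 6 were marked.

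In old CR rats, library 8828 was lowest for member 24, at 45.6 CPM against 98.1 CPM in the next (0.706 of the range), and for member 14, at 19.8 CPM against 25.0 CPM (0.66). CR rat 13 was the highest for member 8, at 7.21 CPM against 4.51 CPM (0.64). Among young AL rats, rat 1 was the highest for member 12, at 40.0 CPM against 33.8 CPM (0.666), and rat 5 for member 18, at 5.25 CPM against 4.21 CPM (0.662). In old AL rats the summed level of all members was lowest in rat 8, at 2910 CPM against 3758 CPM in the next (0.638). Rat 8 and library 8828 are the libraries that stood apart on the first principal component, and 3 of the 6 marks are theirs.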

How the results depend on the processing

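All 29 members were below 0 against young AL rats in each of the 26 alternative fits, for old AL and for old CR. The count called was 16 in old AL rats at an adjusted p of 0.01 or less, against 26, and ran from 18 (without young rat 1) to 27 as each library was left out. For old CR the count called was 14 at an adjusted p of 0.01 or less, against 20. It ran from 16 (without young rat 3) to 25 (without old AL rat 8) as each library was left out. Members 1 to 6, 8, 9, 17 and 19 were called for both old groups in all 26. Between the old groups, 2 members (20 and 29, both lower in CR) were called by DESeq2, with library totals alone, and without rat 8 and library 8828, against 0. Over all genes these settings called 197, 198 and 215 lower in CR rats, against 80. Leaving out 1 library gave 0 to 1, the 1 being member 20 without rat 8 or member 29 without library 8828. The calls over all genes moved more: 222 genes were lower in old AL rats in the fit reported, 471 with DESeq2, 102 with library totals alone and 65 at 0.01. Those higher in old AL rats numbered 275 in the fit reported and 364 with library totals alone. As each library was left out, the 222 ran from 123 (without old AL rat 9) to 350 (without young rat 2). Between the old groups, 30 genes were lower and 39 higher in CR rats without library 8826. Without rat 8 these were 174 and 211, against 80 and 122 in the fit reported. The cause was not tested.

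The rule gave 28 to 49 members as each library was left out, 46 without young rat 1 and 49 without young rat 2, which shows how many genes a single young animal removes. Without rat 8 and library 8828 it gave 37, of which 27 were shared. A floor of 5 CPM left 23. With TMM-scaled totals, the left-out share had a median of 91.1% (lowest 36.9%, young rat 2), against 90.6%. No paired analysis was possible because the groups share no replicate number.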
